A study of Homo sapiens with 9 samples.

Results

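PC9 cells sorted in G2 were compared with PC9 cells sorted in S, over untreated cells and cells kept in osimertinib for 28 days. The comparison took 5 of the 9 libraries of the series, 2 of G2 and 3 of S, with the day of sampling as a term, and each gene was read from the row of its coding span with the highest mean over all libraries. PC9 is a human lung adenocarcinoma line driven by a mutant epidermal growth factor receptor (EGFR), and osimertinib is an inhibitor of that receptor. All cells carried the FUCCI4 cell cycle reporter, of which the labels name mKO2-CDT1 and Clover-GMNN. They were fixed with glyoxal, permeabilised with saponin and sorted on DAPI and the reporter colours, and their poly(A) RNA was sequenced with strand kept.

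The G2 libraries were 1 of untreated cells (day 0) and 1 of cells after 28 days of 500 nM osimertinib, both of clone 1. The S libraries were 2 of untreated cells, of clones 1 and 7, and 1 of cells after 28 days of 500 nM osimertinib, of clone 1. Each clone is a single derived line, and no label says whether libraries of a clone came from separate cultures. The p-values measure only the spread between these libraries, joined to a spread borrowed across genes. In the main fit the libraries gave 2 residual degrees of freedom, against a prior of 9.28 borrowed across genes. Neither G2 library has a replicate of its own day. The libraries are bulk RNA of sorted cells, in which more cells with a transcript and more transcript per cell cannot be told apart.

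Cells in S copy their DNA, and transcription of the replication machinery by the E2F factors precedes and accompanies it. In G2 the cell builds up cyclin B, Polo-like and Aurora kinases and spindle proteins. The genes of these proteins are held down earlier by the DREAM complex. They are switched on late by MYBL2 and FOXM1 through an element called the cell cycle genes homology region (CHR). CCAAT boxes are a further element of many of their promoters. Many mRNAs and proteins of these genes are removed at the end of mitosis, so that they mark the late part of each cycle.

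The 5 libraries held 30.3 to 47.3 M reads (M for mega) over 1 span per gene, and 12385 of 20435 genes had enough reads to be tested. Epithelial and lung adenocarcinoma markers summed to between 13227 and 27353 reads per M in the 5 libraries, against 4.40 to 15.7 for leukocyte markers and 19.3 to 36.2 for fibroblast and endothelial markers. At day 0 the 2 S clones differed by a standard deviation of 0.63 log2 units over the tested genes, against 0.60 between G2 and S of clone 1 at day 0 and 0.79 between G2 and S at day 28. Transcripts of the mitochondrial genome took 6.64% (day 0) and 15.8% (day 28) of reads in G2, against 6.34% and 9.14% (day 0, clones 1 and 7) and 21.6% (day 28) in S. Reads over 414 olfactory receptor genes, which these cells should not express, stood at 0.00357 and 0.0261 reads per kb per M reads in G2 at day 0 and day 28. In S they stood at 0.00110 and 0.00112 at day 0 (clones 1 and 7) and 0.0121 at day 28. The density was thus higher in G2 than in S on both days.

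At a limma adjusted p under 0.05, 78 genes (0.630% of those tested) were higher in G2 and 26 (0.210%) were lower, 104 in all (0.840%). The higher genes included 18 of 37 tested genes of the mitotic spindle, 11 of 27 regulators of entry into mitosis and 5 of 17 genes of cytokinesis. The lower genes included 7 of 27 genes that license and fire replication origins and 5 of 35 genes of the replication fork. KIF20A, PTTG1, KPNA2 and PIF1 were among the highest and E2F1, MCM6, MCM5 and PCNA among the lowest. All 104 differed at least 2-fold and in 1 direction in all 3 within-day pairs of a G2 and an S library. Of all tested genes 26.0% showed this pattern upward and 19.1% downward. The 2 day 0 pairs share 1 G2 library. The levels of the 2 G2 and the 3 S libraries did not overlap in 74 of the 78 higher genes and 24 of the 26 lower genes. Of all tested genes 7.36% did not overlap upward and 6.45% downward. The 104 were called on these same libraries, so both patterns follow in part from the call. Of the 78 higher genes 46 stood in at least 1 of the 29 gene lists, as did 19 of the 26 lower genes. Among all 12385 tested genes 678 stood in a list. The lists were drawn up with earlier results of these data known, so these counts are not independent support.

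The number of calls changed with the fit. With limma on all 9 libraries, without the variance trend, with the olfactory read density subtracted, or without either day 28 library, 0 genes passed in either direction. In those fits 969 to 1415 of the tested genes had an unadjusted p under 0.05, among them 99 to 104 of the 104, and all 104 kept their direction. With the olfactory density subtracted the log2 fold changes of the 104 shifted by a median of 0.00132 and by at most 0.44. Without the day 0 G2 library most of the 104 no longer passed. All 104 kept their direction there, and their log2 fold changes shifted by a median of 0.19 and by at most 1.02. Leaving out that library makes the estimate of a gene its day 28 difference, and leaving out either day 28 library makes it the day 0 difference; both are given below for the genes described that moved over 1.5-fold. With the median over the rows of a gene in place of its highest row, MCM2 (-4.21), CDC6 (-2.63), FAM111B (-4.70), PLAT (-2.80) and ANKFY1 (3.69) moved over 1.5-fold and did not pass (adjusted p of 0.191, 0.213, 0.173, 0.109 and 0.124). With the clone as a block 278 were higher and 195 lower, the 104 among them. The block removes the weight of the lone clone 7 library and leaves 1 residual degree of freedom. Adjusted p-values with the block therefore rest mostly on a spread borrowed across genes, not on replicates.

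**Figure D1:**
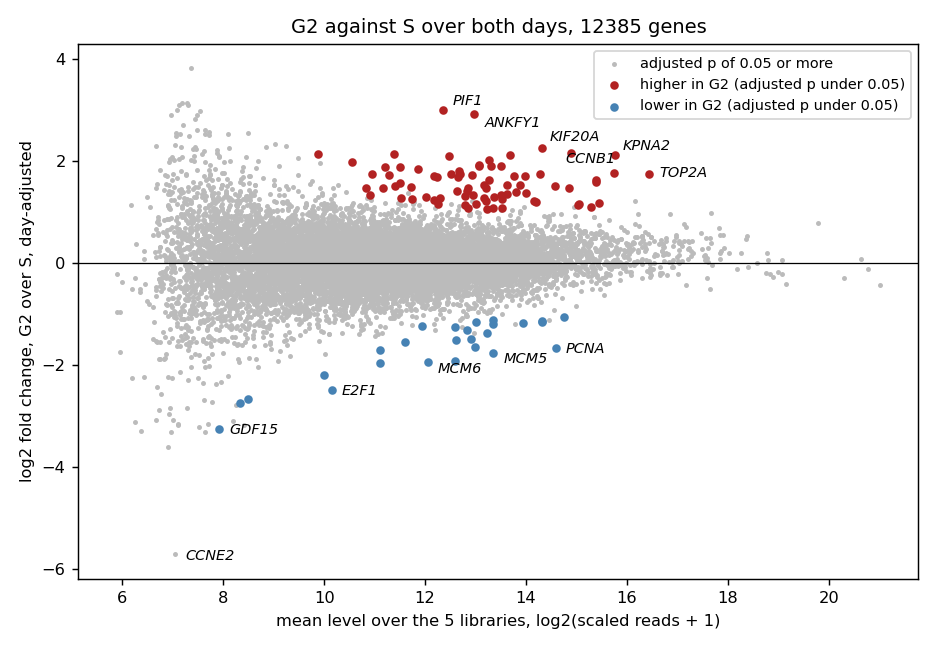
Day-adjusted log2 fold change of G2 over S (vertical) against the mean level over the 5 libraries (horizontal), 1 point per tested gene. Red points are the 78 genes higher in G2, blue points the 26 genes lower in G2, and grey points did not pass an adjusted p of 0.05; CCNE2 lies lowest at -5.71 with an adjusted p of 0.0514.

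The genes with the largest differences are described by their level in each library, in log2 of the scaled read number plus 1, where a difference of 1 is a doubling. KIF20A, a kinesin of the central spindle (ENSG00000112984, GRCh38 chromosome 5, coding span 138179681 to 138187413), stood at 15.77 and 15.48 in G2 at day 0 and day 28, against 13.64 and 13.67 in S at day 0 (clones 1 and 7) and 13.07 in S at day 28. Its log2 fold change was 2.24 ± 0.20 (SE), or 4.74-fold, with an adjusted p of 0.00184. Both G2 libraries lay more than 1 log2 unit above every S library. PTTG1, the securin that holds separase until anaphase, stood at 16.39 and 15.88 in G2 at day 0 and day 28, against 14.10, 14.36 and 13.72 in S, and rose by 2.16 ± 0.20 (adjusted p = 0.00184). KPNA2, an importin alpha of nuclear import, stood at 17.56 and 16.23 in G2 and at 15.63, 15.47 and 13.98 in S (2.12 ± 0.21, adjusted p = 0.00184). KPNA2 was lower at day 28 than at day 0 in either phase, and its G2 library was the higher on each day.

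E2F1, the factor that switches on S phase genes (ENSG00000101412, chromosome 20, 33676732 to 33686264), had the largest fall of the 15 named. It stood at 9.09 and 8.25 in G2 at day 0 and day 28, against 11.19 and 10.62 in S at day 0 (clones 1 and 7) and 11.63 in S at day 28, which corresponds to 212 and 147 reads in G2 and 1155, 449 and 1434 reads in S. Its log2 fold change was -2.49 ± 0.40 with an adjusted p of 0.0148, and it was -1.81 at day 0 and -3.38 at day 28. MCM6, a subunit of the replicative helicase (ENSG00000076003, chromosome 2, 135840835 to 135876365), stood at 11.89 and 9.56 in G2, against 13.65, 12.98 and 12.20 in S, and fell by 1.95 ± 0.32 (adjusted p = 0.0155), with -1.42 at day 0 and -2.64 at day 28. PCNA, the sliding clamp of the replication fork, stood at 14.34 and 12.63 in G2, against 15.50, 15.43 and 15.02 in S (log2 fold change -1.67 ± 0.27, adjusted p = 0.0155), with -1.12 at day 0 and -2.39 at day 28. In each of these genes both G2 libraries lay below all S libraries.

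**Figure D2:**
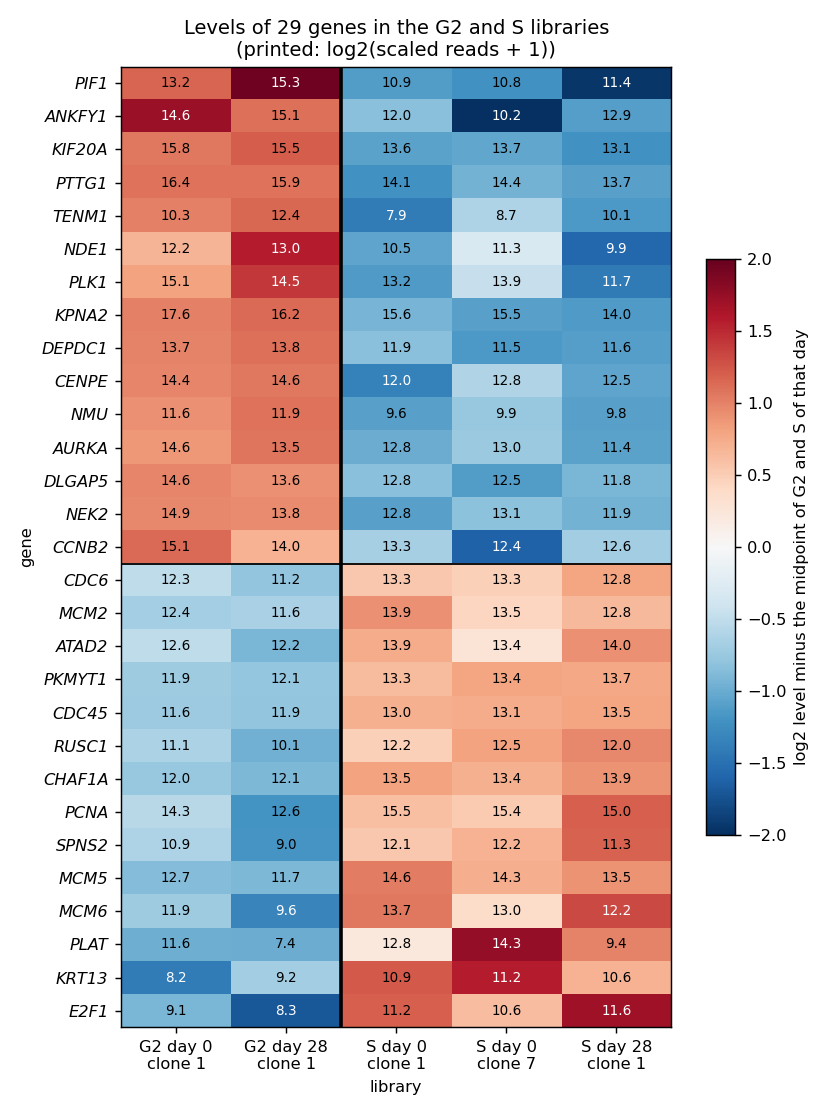
Levels of the 15 genes with the largest rise and 14 of the 15 with the largest fall (rows) in the 5 libraries (columns, G2 left of S), printed as log2(scaled reads + 1). The colour gives the difference from the midpoint of G2 and S of that day, ending at 2 either way: the upper 15 rows are red in both G2 columns and the lower 14 are blue.

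Promoters of called genes are shown because CHR cores, CCAAT boxes and E2F matches can be read in them directly. The sequences are RefSeq promoters of GRCh38.p14, 250 bases before to 50 after the annotated start, 5′ to 3′ on the gene's strand. The first 4 are those with the largest rise among the genes of the 15 largest rises that held both elements. DLGAP5 and CCNB2 of the same 15 held both as well and are not printed. In these 4 the capitals mark CHR cores (TTTGAA or TTCGAA, either strand) and CCAAT boxes (CCAAT, either strand).
PIF1, chr15:64825598-64825897, minus strand: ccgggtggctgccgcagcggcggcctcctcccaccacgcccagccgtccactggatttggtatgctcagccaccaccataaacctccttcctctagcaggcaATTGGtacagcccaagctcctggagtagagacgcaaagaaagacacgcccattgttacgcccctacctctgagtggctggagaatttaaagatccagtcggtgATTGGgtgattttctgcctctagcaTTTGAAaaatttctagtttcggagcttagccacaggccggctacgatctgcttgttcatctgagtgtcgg
PLK1, chr16:23678639-23678938, plus strand: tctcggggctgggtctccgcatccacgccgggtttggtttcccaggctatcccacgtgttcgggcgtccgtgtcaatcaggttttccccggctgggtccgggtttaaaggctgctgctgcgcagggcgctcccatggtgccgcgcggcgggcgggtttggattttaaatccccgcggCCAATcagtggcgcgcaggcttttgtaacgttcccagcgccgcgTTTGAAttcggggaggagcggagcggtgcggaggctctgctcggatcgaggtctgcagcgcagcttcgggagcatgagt
KPNA2, chr17:68035485-68035784, plus strand: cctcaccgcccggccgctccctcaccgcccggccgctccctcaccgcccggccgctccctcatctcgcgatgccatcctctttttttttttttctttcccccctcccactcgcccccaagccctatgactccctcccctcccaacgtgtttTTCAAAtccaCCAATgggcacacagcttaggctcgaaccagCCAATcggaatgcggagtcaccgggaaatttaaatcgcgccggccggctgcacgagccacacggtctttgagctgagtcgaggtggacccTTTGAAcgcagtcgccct
DEPDC1, chr1:68497033-68497332, minus strand: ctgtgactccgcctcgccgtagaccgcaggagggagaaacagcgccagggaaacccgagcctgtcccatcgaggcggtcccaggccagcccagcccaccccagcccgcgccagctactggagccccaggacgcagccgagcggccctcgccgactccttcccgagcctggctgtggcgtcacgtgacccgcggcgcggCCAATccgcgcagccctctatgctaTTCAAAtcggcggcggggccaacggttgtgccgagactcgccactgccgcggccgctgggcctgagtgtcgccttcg
The next 3 are those with the largest fall among the genes of the 15 largest falls that held an E2F match. CHAF1A, CDC45, MCM2 and CDC6 of the same 15 held a match as well and are not printed. In these 3 the capitals mark E2F matches (TTTGGCGC, TTTCCCGC, TTTGGCGG, TTTCCCGG or TTTCGCGC, either strand).
E2F1, chr20:33686336-33686635, minus strand: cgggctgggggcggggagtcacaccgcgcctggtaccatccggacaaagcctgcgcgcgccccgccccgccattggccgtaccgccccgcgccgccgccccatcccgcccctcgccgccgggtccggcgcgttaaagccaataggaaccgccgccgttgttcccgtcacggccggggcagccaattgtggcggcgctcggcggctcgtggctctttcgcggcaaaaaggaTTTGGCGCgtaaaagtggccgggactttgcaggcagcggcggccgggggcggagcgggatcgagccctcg
MCM6, chr2:135876394-135876693, minus strand: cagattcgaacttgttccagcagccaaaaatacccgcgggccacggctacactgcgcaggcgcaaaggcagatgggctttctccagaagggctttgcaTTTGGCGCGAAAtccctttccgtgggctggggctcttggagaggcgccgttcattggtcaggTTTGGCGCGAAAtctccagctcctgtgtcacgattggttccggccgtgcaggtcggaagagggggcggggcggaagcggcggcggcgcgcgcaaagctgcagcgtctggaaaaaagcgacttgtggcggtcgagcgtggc
PCNA, chr20:5126573-5126872, minus strand: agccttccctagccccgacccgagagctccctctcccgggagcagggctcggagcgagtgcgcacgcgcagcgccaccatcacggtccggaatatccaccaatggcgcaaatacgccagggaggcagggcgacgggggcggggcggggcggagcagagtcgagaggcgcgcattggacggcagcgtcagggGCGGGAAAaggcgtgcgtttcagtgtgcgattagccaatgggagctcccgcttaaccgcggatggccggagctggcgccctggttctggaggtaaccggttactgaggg

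In PIF1 the CHR core began 20 bases before the start, with CCAAT boxes at 45 and 148 bases before it. In PLK1 the core lay at 29 and the box at 73 bases before the start, and in DEPDC1 at 27 and 52. KPNA2 had cores at 99 bases before and 33 after the start and boxes at 58 and 89 before it. The E2F match of E2F1 lay 20 bases before the start and that of PCNA 59 bases before it, while MCM6 had 4 matches, in 2 overlapping pairs, between 152 and 86 bases before its start.

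Among the higher genes 65 of 78 had a promoter in the table, and 37 of them (56.9%) held a CHR core, against 11.1% of the 9862 tested genes with a promoter. A CCAAT box was present in 46 (70.8%) against 36.9%, and both elements in 35 (53.8%) against 4.82%. An E2F match was present in 7 (10.8%) against 8.28%. Among the lower genes 17 of 26 had a promoter, of which 11 (64.7%) held an E2F match, 13 (76.5%) a CCAAT box and 1 (5.88%) a CHR core. The windows of KIF20A, PTTG1, CENPE and CCNB1, all among the higher genes, held no CHR core. Of the 49 CHR matches in higher genes 34 began between 100 bases before and 50 after the start, with a median position 29 before it, and 64 of 94 CCAAT matches lay in the same window with a median at 81 before the start. A match is a run of letters and not an occupied site.

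**Figure D3:**
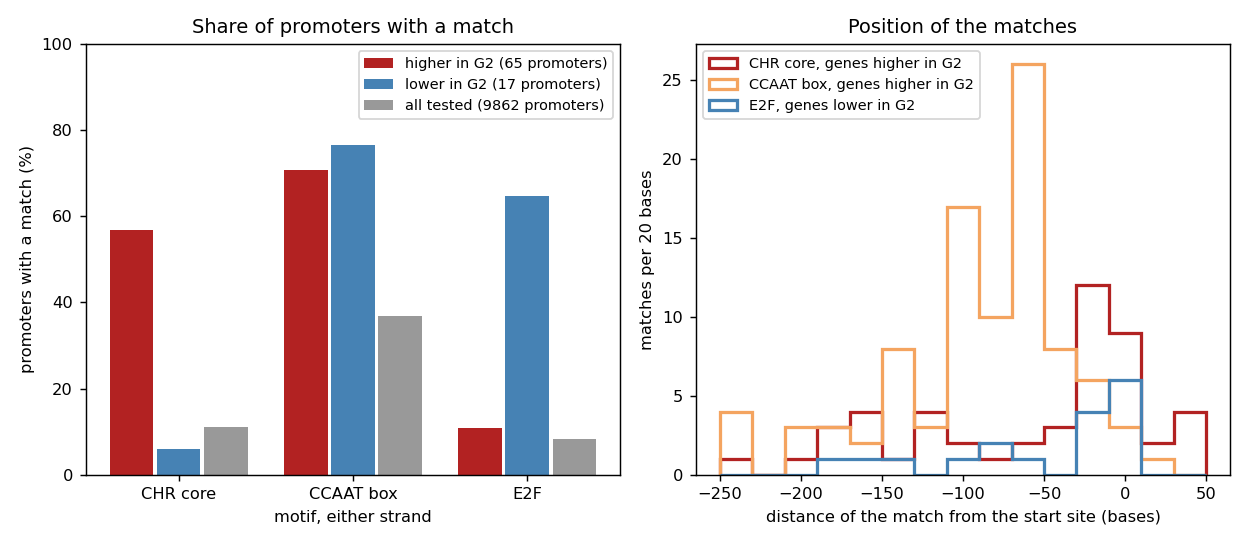
Left, percent of promoters with a match for each motif on either strand, for the 65 promoters of genes higher in G2 (red), the 17 of genes lower in G2 (blue) and all 9862 of tested genes (grey); the CHR core was in 56.9%, 5.88% and 11.1% of them. Right, number of matches per 20 bases by distance from the start site: CHR and CCAAT matches of higher genes and E2F matches of lower genes.

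In the list of mitotic kinases, cyclins and entry regulators 11 of 27 tested members rose and 1, PKMYT1, fell, with a median log2 fold change of 0.74 against 0.05 over all tested genes (15 rose and 1 fell with the clone block). PLK1, the Polo-like kinase of mitotic entry and spindle assembly (ENSG00000166851, chromosome 16, 23678933 to 23690063), stood at 15.14 and 14.52 in G2 at day 0 and day 28, against 13.20 and 13.88 in S at day 0 (clones 1 and 7) and 11.70 in S at day 28. It rose by 2.12 ± 0.30 (adjusted p = 0.00781), and the gap was 2.82 log2 units at day 28 and 1.60 at day 0. AURKA, the centrosomal Aurora kinase, rose by 1.91 ± 0.22 (adjusted p = 0.00426), and BORA, its cofactor in activating PLK1, by 1.74 ± 0.23 (adjusted p = 0.00679). NEK2, a kinase that separates the centrosomes, rose by 1.90 ± 0.21 (adjusted p = 0.00358).

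Of the cyclins in that list, CCNB1 (cyclin B1), partner of CDK1, stood at 17.26 and 16.06 in G2 at day 0 and day 28, against 15.41, 15.75 and 14.21 in S, and rose by 1.76 ± 0.21 (adjusted p = 0.00448). CCNB2 stood at 15.14 and 14.01 in G2, against 13.34, 12.38 and 12.61 in S (1.90 ± 0.30, adjusted p = 0.0152). CCNA2 (cyclin A2), which acts in S and G2, rose less, by 1.39 ± 0.22 (adjusted p = 0.0131). The phosphatase CDC25B, which activates CDK1, rose by 1.84 ± 0.26 (adjusted p = 0.00803), whereas PKMYT1, a kinase that restrains CDK1, stood at 11.95 and 12.14 in G2 and at 13.30, 13.45 and 13.70 in S (log2 fold change -1.48 ± 0.21, adjusted p = 0.00803). The whole coding span of PAQR4, another lower gene, lies within PKMYT1 on the opposite strand.

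Several regulators of the same step did not pass. CDK1 itself had a log2 fold change of 0.72 ± 0.21 (adjusted p = 0.191, or 0.0316 with the clone block), AURKB, the kinase of the chromosomal passenger complex, 0.74 ± 0.20 (0.153, or 0.0358 with the block), and CDC25C 1.12 ± 0.23 (0.0520, or 0.000230 with the block). The proliferation marker MKI67 had 0.92 ± 0.21 (0.0796, or 0.00117 with the block), and WEE1, the other inhibitory kinase of CDK1, 0.41 ± 0.24 (0.481). In the list of G2/M transcription factors and DREAM subunits 0 of 15 members passed and the median was -0.09. FOXM1 stood at 13.90 and 13.79 in G2 at day 0 and day 28, against 13.97, 13.41 and 13.57 in S (0.21 ± 0.23, adjusted p = 0.723), so that its levels in G2 and S overlapped.

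The spindle list had the most calls. Of 37 tested spindle proteins and mitotic kinesins 18 rose and 0 fell, 31 were higher in all 3 within-day pairs and the median log2 fold change was 1.14 (1.01 at day 0 and 1.21 at day 28); with the clone block 26 rose and 0 fell. Beside KIF20A, DEPDC1, a DEP domain protein of mitosis, rose by 2.08 ± 0.23 (adjusted p = 0.00358), DLGAP5, which stabilises kinetochore fibres, by 1.91 ± 0.22 (0.00368), and ASPM, a spindle pole protein, by 1.74 ± 0.23 (0.00679). HMMR rose by 1.69 ± 0.22 (0.00649) and TPX2, the activator of AURKA on the spindle, by 1.50 ± 0.21 (0.00781).

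In the kinetochore and spindle checkpoint list 6 of 39 tested members rose, 0 fell and the median was 0.51 (14 rose and 2 fell with the clone block). CENPE, the motor that carries chromosomes along microtubules, stood at 14.37 and 14.61 in G2 at day 0 and day 28, against 12.03, 12.78 and 12.51 in S (2.02 ± 0.25, adjusted p = 0.00587). SGO2, a shugoshin that protects cohesin at centromeres, rose by 1.81 ± 0.22 (0.00448), CENPA, the centromeric histone H3, by 1.73 ± 0.32 (0.0321, with 1.23 at day 0 and 2.41 at day 28), and CENPF, a large kinetochore protein, by 1.09 ± 0.20 (0.0318). BUB1, the checkpoint kinase and counted above with the mitotic kinases, rose by 1.36 ± 0.20 (0.00889). BIRC5 (survivin) rose by 1.15 ± 0.23 (0.0469), although its day 28 G2 library at 12.38 lay just below the day 0 S library of clone 1 at 12.39. MIS12, a kinetochore scaffold subunit, had -1.88 ± 0.68 (0.303, or 0.00298 with the block) and stood at 9.05 and 5.77 in G2 and at 9.35, 9.39 and 9.72 in S, so that the gap lay in the day 28 G2 library.

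In the list of the anaphase-promoting complex and mitotic exit 4 of 22 rose with a median of 0.20 (6 with the clone block), and these 4 were PTTG1, the activator CDC20 (1.63 ± 0.23, adjusted p = 0.00803), CDCA3 (1.20 ± 0.20, 0.0193) and the ubiquitin-conjugating enzyme UBE2C (1.17 ± 0.23, 0.0469). In the cytokinesis list 5 of 17 rose, 15 of 17 were higher in all 3 pairs and the median was 0.80 (6 rose with the clone block). CEP55, which recruits the abscission machinery to the midbody, rose by 1.56 ± 0.25 (0.0141) and RACGAP1, of the centralspindlin complex, by 1.28 ± 0.21 (0.0155). In the condensation and cohesion list TOP2A, the topoisomerase that untangles sister chromatids, was the 1 member that rose. It stood at 17.44 and 17.53 in G2 at day 0 and day 28, against 15.47, 15.99 and 15.77 in S (1.74 ± 0.23, adjusted p = 0.00652). Of the 22 tested members 1 fell, and the median was 0.21 (4 rose and 3 fell with the clone block). Among 18 centrosome genes only CEP70 passed (1.69 ± 0.22, 0.00652), and the median was 0.02 (2 rose with the clone block).

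**Figure D4:**
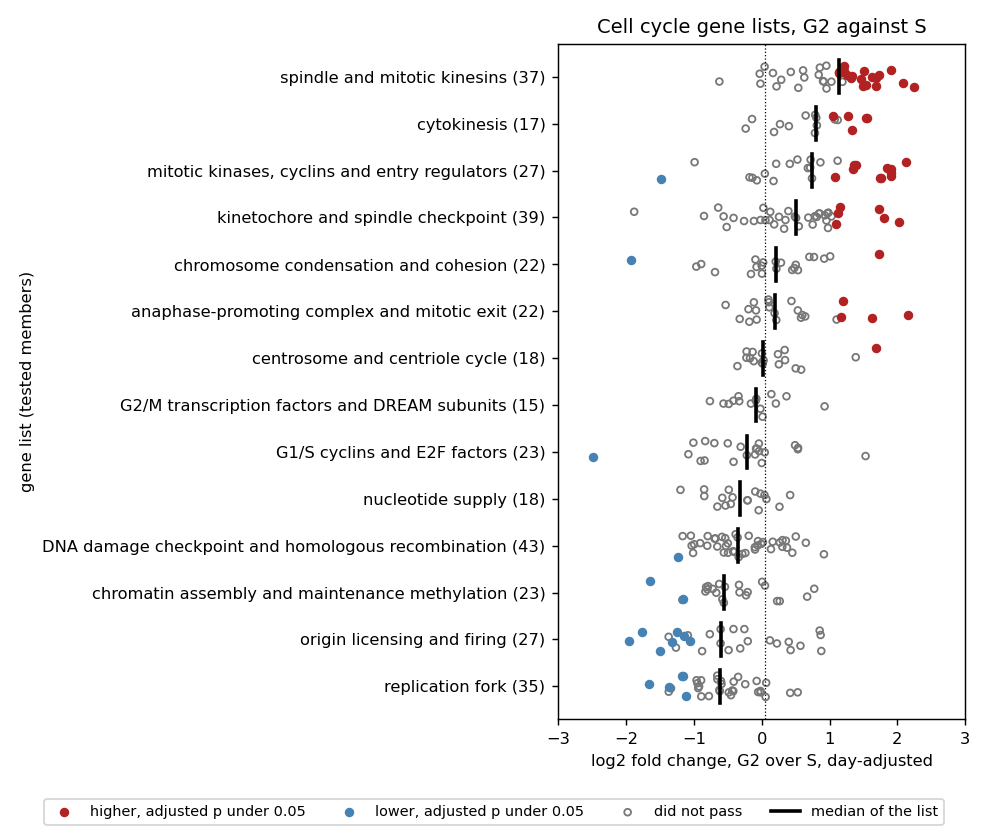
Day-adjusted log2 fold change of G2 over S for the tested members of 14 cell cycle lists (1 point per gene, vertical scatter only for visibility), with the list median as a black bar and the median of all tested genes, 0.05, as a dotted line. Red and blue points passed an adjusted p of 0.05; spindle genes had the highest median at 1.14 and replication fork genes the lowest at -0.62. CCNE2, at -5.71 in the list of G1/S cyclins, lies outside the axis.

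Genes outside these lists were also higher. PIF1, a DNA helicase of telomeres and stalled forks (ENSG00000140451, chromosome 15, 64815691 to 64824335), had the largest rise. It had 3707 and 19868 reads in G2 at day 0 and day 28, against 966 and 523 reads in S at day 0 (clones 1 and 7) and 1256 in S at day 28, or levels of 13.21 and 15.32 against 10.93, 10.84 and 11.44. The log2 fold change was 3.00 ± 0.32, or 7.98-fold (adjusted p = 0.00340). It was 3.89 at day 28 and 2.33 at day 0, and the difference between the days did not pass (1.55 ± 2.14, adjusted p = 1.00).

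NDE1, a dynein regulator at centrosomes and kinetochores, stood at 12.25 and 13.04 in G2 at day 0 and day 28, against 10.51, 11.26 and 9.88 in S, and rose by 2.13 ± 0.39 (adjusted p = 0.0302). Its gap was 3.15 log2 units at day 28 and 1.36 at day 0, and without the G2 library of day 28 it did not pass (adjusted p = 0.362). NMU, which encodes the secreted peptide neuromedin U, stood at 11.57 and 11.94 in G2 at day 0 and day 28, against 9.56, 9.88 and 9.77 in S (1.99 ± 0.29, adjusted p = 0.00906). The chromatin protein HMGB3 rose by 1.70 ± 0.22 (0.00652) and INHBA, the beta A subunit of activins, by 1.46 ± 0.29 (0.0420). The histone demethylase KDM5B, read here over a row of 3.30 kb, rose by 1.28 ± 0.24 (0.0318). CDKN3, a phosphatase that acts on cyclin-dependent kinases, rose by 1.71 ± 0.23 (0.00727).

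TENM1, a teneurin of the cell surface with a coding span of 583 kb, stood at 10.29 and 12.40 in G2 at day 0 and day 28, against 7.89, 8.67 and 10.11 in S (2.13 ± 0.36, adjusted p = 0.0193). The values are given per coding span and may count reads over introns too, which was not tested. The 434 tested genes with spans over 300 kb had a median log2 fold change of 0.58, against -0.07 in the 3273 genes with spans up to 10 kb. Genes with spans over 300 kb took 0.880% and 2.72% of reads in G2 at day 0 and day 28, against 0.733% and 0.726% in S at day 0 (clones 1 and 7) and 2.06% in S at day 28. The called genes were not long as a class, with median spans of 24.6 kb among the higher and 12.4 kb among the lower genes, against 25.8 kb over all tested genes. With the trend on span removed 62 genes were higher and 18 lower, 79 of the 104 among them, and TENM1 no longer passed (1.36, adjusted p = 0.159).

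The rise of ANKFY1, an endosomal Rab effector, came from 1 end of the gene. Over its span of 96.2 kb the level was 14.57 and 15.13 in G2 at day 0 and day 28, against 12.00, 10.23 and 12.94 in S (2.91 ± 0.44, adjusted p = 0.0115). In G2 9180 of 9462 (day 0) and 16891 of 17366 (day 28) of these reads lay in the 46.8 kb at the 5′ end (GRCh38 chr17:4217112-4263941, minus strand), against 1550 of 2029 and 33 of 344 in S at day 0 (clones 1 and 7) and 2807 of 3558 in S at day 28. This part had 208 and 392 reads per M in G2 at day 0 and day 28, against 32.8 and 1.09 in S at day 0 (clones 1 and 7) and 68.7 in S at day 28. The rest of the gene held 6.39 and 11.03 reads per M in G2, against 10.1, 10.3 and 18.4 in S, and so was lower in G2 on each day. Clone 1 had 270 and 527 reads per M in the 5′ part in G1 at day 0 and day 28, against 0.567 and 10.3 in G1 of clone 7. Both G2 libraries are of clone 1. Between the clone 1 libraries alone the log2 fold change of ANKFY1 was 2.57 at day 0 and 2.19 at day 28. With the clone as a block it was 2.38, an estimate that rests on these same clone 1 libraries.

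In the list of origin licensing and firing 7 of 27 tested members fell, 0 rose, 16 were lower in all 3 pairs and the median log2 fold change was -0.60 (12 fell and 1 rose with the clone block). Of the MCM helicase, 4 subunits passed the test. MCM5 stood at 12.69 and 11.71 in G2 at day 0 and day 28, against 14.57, 14.27 and 13.52 in S (-1.77 ± 0.21, adjusted p = 0.00448), MCM2 had -1.32 ± 0.23 (0.0238) and MCM7 -1.05 ± 0.21 (0.0469), beside MCM6 above. The other subunits, named after their values were seen, had -0.76 ± 0.28 (MCM3, adjusted p = 0.307) and -1.26 ± 0.29 (MCM4, 0.0864). CDC6, which loads the helicase, had -1.25 ± 0.23 (0.0318), and CDC45, which activates it, stood at 11.60 and 11.92 in G2 and at 13.04, 13.06 and 13.49 in S (-1.50 ± 0.22, 0.00803). ORC1, the largest subunit of the origin recognition complex, had -1.37 ± 0.29 (0.0632, or 5.21e-05 with the block).

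At the replication fork 5 of 35 tested members fell, 0 rose, 24 were lower in all 3 pairs and the median was -0.62 (14 fell with the clone block). Beside PCNA these were the catalytic subunits POLD1 (-1.18 ± 0.21, adjusted p = 0.0237) and POLE (-1.16 ± 0.23, 0.0414) of the replicative polymerases, the flap nuclease FEN1 (-1.12 ± 0.21, 0.0318) and ATAD2, a bromodomain ATPase of replicating chromatin (-1.37 ± 0.25, 0.0321). CLSPN, the adaptor of the replication checkpoint, had -1.37 ± 0.31 (0.0798, or 1.84e-07 with the block). POLD1 shares 11.3% of its span with another annotated gene of the same strand, so its reads may include some of that gene.

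In the list of chromatin assembly and maintenance methylation 2 of 23 tested members fell, 17 were lower in all 3 pairs and the median was -0.56 (6 fell with the clone block). CHAF1A, the large subunit of chromatin assembly factor 1, stood at 11.95 and 12.13 in G2 at day 0 and day 28, against 13.53, 13.44 and 13.92 in S (-1.64 ± 0.21, adjusted p = 0.00649). DNMT1, the maintenance DNA methyltransferase, had -1.16 ± 0.21 (0.0256). Nucleotide supply had 0 of 18 calls and a median of -0.32, with 4 lower with the block, among them thymidylate synthase TYMS (-1.20 ± 0.27, adjusted p = 0.0854, or 1.83e-06 with the block) and the ribonucleotide reductase subunit RRM2 (-0.85 ± 0.28, 0.242, or 0.000746).

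Among 23 tested G1/S cyclins and E2F factors only E2F1 passed, and the median was -0.22 (3 fell and 1 rose with the block). CCNE2 (cyclin E2) had 18 reads and 1 read in G2 at day 0 and day 28, against 231 and 84 in S at day 0 (clones 1 and 7) and 908 in S at day 28. The day-adjusted log2 fold change was -5.71 ± 1.16 (adjusted p = 0.0514), with -2.98 at day 0 and -9.36 at day 28. With the block it was -6.33 (adjusted p = 6.85e-12), a p-value that rests mostly on a spread borrowed across genes, not on replicates. The ratio of G2 to S at day 28 was 0.00103 with an exact counting interval of 2.60e-05 to 0.00575. CCNE1 did not pass (-0.70 ± 0.34, 0.426), nor did the repressor E2F8 (-0.41 ± 0.25, 0.517) or SLBP, the binding protein of histone mRNA (-0.90 ± 0.22, 0.115, or 0.0131 with the block). Of 53 replication-dependent histone genes in the file 5 were tested and 0 passed (1 rose with the block), and these transcripts mostly lack the poly(A) tail by which the libraries were made. H2BC11, a histone H2B gene, stood at 8.54 and 9.80 in G2 at day 0 and day 28, against 6.20, 5.43 and 7.38 in S (2.60 ± 0.62, adjusted p = 0.0997, or 0.0328 with the block).

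In the list of the DNA damage checkpoint and homologous recombination XRCC3, a gene of recombinational repair, was the 1 of 43 tested members that fell (-1.24 ± 0.24, adjusted p = 0.0420), and the median was -0.35. With the clone block 9 fell, among them the nuclease EXO1 (-1.03 ± 0.22, 0.0650, or 0.000746 with the block).

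Other lower genes stood outside the cell cycle lists. KRT13, a keratin of stratified epithelium, stood at 8.22 and 9.18 in G2 at day 0 and day 28, against 10.85, 11.19 and 10.57 in S (-2.20 ± 0.38, adjusted p = 0.0225), with -2.80 at day 0 and -1.40 at day 28. PLAT, the tissue plasminogen activator, stood at 11.62 and 7.40 in G2 at day 0 and day 28, against 12.80 and 14.35 in S at day 0 (clones 1 and 7) and 9.38 in S at day 28 (-1.97 ± 0.39, 0.0469). The PLAT levels of the groups overlapped across the days, since day 28 was lower in both phases, and within each day G2 was below S. SPNS2, an exporter of sphingosine 1-phosphate, had -1.71 ± 0.31 (0.0268), with -1.23 at day 0 and -2.36 at day 28, and the adaptor RUSC1 -1.55 ± 0.26 (0.0217).

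At lower read numbers 3 more genes fell. GDF15, a stress cytokine and p53 target, had 17 and 43 reads in G2 at day 0 and day 28, against 213 and 305 in S at day 0 (clones 1 and 7) and 206 in S at day 28 (-3.25 ± 0.63, adjusted p = 0.0396), with a log2 difference of -3.93 at day 0 and -2.35 at day 28. FAM111B, a protease, had 53 and 38 reads in G2, against 357, 122 and 467 in S (-2.74 ± 0.55, 0.0469), with -2.02 at day 0 and -3.70 at day 28. PAQR4, a membrane protein, had 81 and 28 reads in G2, against 538, 215 and 280 in S (-2.67 ± 0.50, 0.0321), with -2.12 at day 0 and -3.40 at day 28. Among 22 tested p53 targets GDF15 was the 1 called (2 fell with the clone block), the median was -0.11, and CDKN1A (p21) had -1.08 ± 0.61 (0.479).

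The genes behind the sorting reporter did not pass. CDT1, a licensing factor degraded in S, had a log2 fold change of 0.85 ± 0.33 (adjusted p = 0.324), and GMNN (geminin), its inhibitor, 0.88 ± 0.37 (0.366). The labels say that the reporter carries parts of both. Over the whole CDT1 span there were 147 and 172 reads per M in G2 at day 0 and day 28, against 145, 52.0 and 100.1 in S. An inner stretch of 1.58 kb (GRCh38 chr16:88805768-88807342) held 12.2 and 11.5 reads per M in G2, against 43.1, 23.2 and 26.7 in S. The inner stretch was therefore lower in G2 than in every S library while the whole span was not, and what part of the reads came from the reporter was not tested.

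The differences were set side by side for the untreated and the treated cells, which share no library. Among the 78 higher genes the median log2 difference was 1.42 at day 0 and 1.67 at day 28, and 47 of them had the larger gap at day 28. Among the 26 lower genes it was -1.31 at day 0 and -1.69 at day 28, and 21 had the larger gap at day 28, against 6440 of the 12385 tested genes. These medians are of genes chosen for their difference over both days and carry no test. The test of the day-by-phase difference itself passed for 0 genes with limma (342 or 2.76% at an unadjusted p under 0.05).

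Within a day there is 1 G2 library, so the spread was taken from all 9 libraries. At day 0 alone 0 genes passed (625 or 5.05% at an unadjusted p under 0.05). At day 28 alone 4 genes passed (0.0323%), all lower in G2, and at an unadjusted p under 0.05 there were 763 (6.16%). These 4 were CCNE2, described above, and FICD, LRRC46 and ENSG00000285508, which were chosen after their values were seen, and each had 0 or 1 read in day 28 G2. FICD, which modifies the chaperone BiP, had 1 read in G2 and 146 in S, LRRC46 had 0 and 338, and ENSG00000285508 had 0 and 141. With any of 7 other libraries left out in turn 0 passed at day 28.

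**Figure D5:**
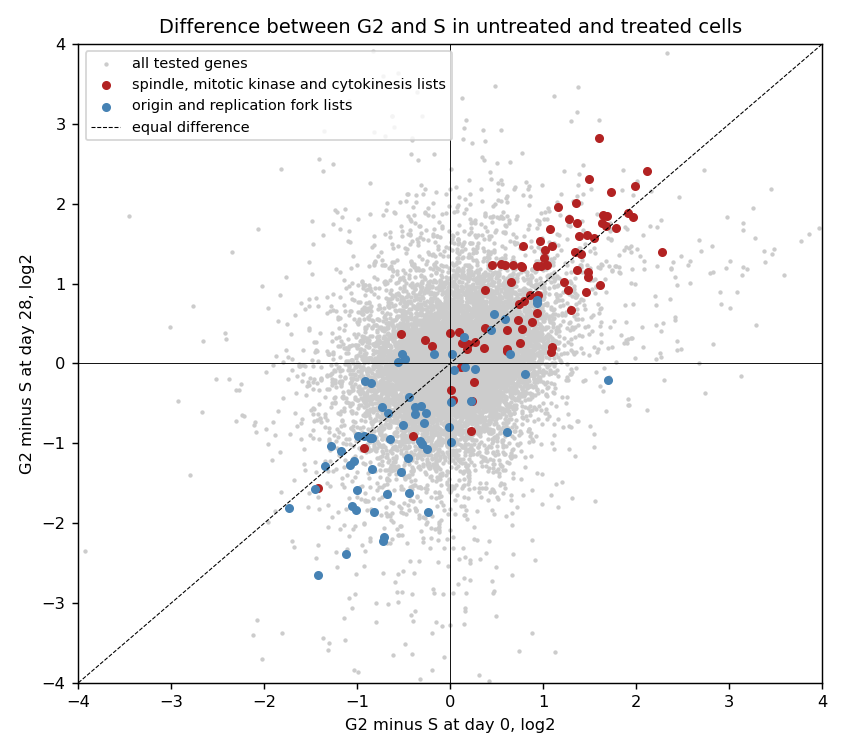
G2 minus S at day 28 (vertical) against G2 minus S at day 0 (horizontal), both in log2 units, 1 point per tested gene; points beyond 4 on either axis are not drawn. Members of the spindle, mitotic kinase and cytokinesis lists (red) lie mostly at the upper right and members of the origin and replication fork lists (blue) mostly at the lower left, and KIF20A, with 2.12 at day 0 and 2.41 at day 28, is close to the dashed line of equal differences.

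Lists outside the cell cycle had 0 calls apart from GDF15 of the p53 targets. Of 19 immediate early genes 0 passed, 11 were lower and 0 higher in G2 in all 3 pairs, and the median was -0.62. EGR1, a zinc finger factor of that list, had -1.41 ± 0.38 (adjusted p = 0.151, or 0.00892 with the clone block) and DUSP1, a phosphatase of stress kinases, -1.24 ± 0.30 (0.113, or 0.00139), and 5 members were lower with the block. Cytosolic ribosomal protein genes had 0 calls among 67, with a median of 0.33 over both days, 0.52 at day 0 and -0.01 at day 28. Nuclear respiratory chain subunits had a median of 0.21 over both days, 0.45 at day 0 and -0.15 at day 28, and the 13 mRNAs of the mitochondrial genome -0.22. The medians of the ERK target, YAP, interferon, unfolded protein response, cholesterol and glycolysis lists lay between -0.20 and 0.01, and with the clone block 0 of their members rose and up to 3 of a list (YAP) fell. EGFR, the target of osimertinib, did not differ detectably (0.19 ± 0.22, adjusted p = 0.728), nor did CCND1 (0.49 ± 0.28, 0.477) or DUSP6, a feedback phosphatase of the ERK pathway (-0.49 ± 0.60, 0.761).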

How the data were processed

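The authors' deposited file holds log2 values of 80037 coding transcripts in 9 libraries. The submitters' processing notes name GRCh38, HISAT2 2.1.0 as the aligner and DESeq2 (no version); the counter and the scaling are not given in the sources used here. Checked from the values, each deposited log2 value is that of a whole number of reads multiplied by a factor of its library. A span with no read was given 0.9 reads, and 100% of values up to 1000 reads were whole within 0.05. Each row is given by the start and end of a coding span. This check cannot show whether reads over introns were counted. Labels give about 24 M reads per sample, and the 5 libraries held 30.3 to 47.3 M over 1 span per gene. At a mean of 10 reads, the minimum set by the shallowest library (mean log2 of 7.01), counting error is wide, and intervals cover counting error only.

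Log2 values were made linear, 1 was added, and log2 was taken again. Tests used limma 3.58.1 in R 4.3.3 (lmFit, eBayes with trend, Benjamini-Hochberg adjustment over 12385 genes, threshold 0.05), with matplotlib 3.10.9, scipy 1.17.1, pandas 2.3.3 and numpy 2.4.6 under Python 3.11.15 and the data.table package of R at version 1.17.8. The main fit used the 5 libraries with day and phase; single days and the day-by-phase difference used 6 group means on 9 libraries, with lone libraries assumed to vary like the others. The same steps were tested on simulated data. Same-numbered libraries are of the same clone, so the clone pairs them; only 1 of the 5 is of clone 7, so no correlation of deviations could be checked among them, and results with the clone as a block (replicate block) stand beside those calls and counts that it moved. Alternatives were other scalings, filters, pseudocounts (0.1 and 5), variance models including voom on recovered reads, a span trend, the median over rows, left-out libraries and, added after seeing the data, subtraction of the olfactory read density.

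Genes were named by a rule: the 15 largest differences each way that passed, with a mean log2 of at least 3 in reads per M and 1 direction in all 3 within-day pairs, up to 4 members per list, and 36 fixed genes. Another 15, which were TPX2, BORA, CDC25B, HMMR, BIRC5, CDKN3, HMGB3, KDM5B, INHBA, FEN1, POLE, POLD1, MCM7, FAM111B and PAQR4, were chosen after their values had been seen, as were MCM3, MCM4, FICD, LRRC46 and ENSG00000285508. Members and lists were chosen with earlier results of these data known, and some genes the rule names are not reported here. Lists are described by counts and medians without a test.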

Additional observations from a re-analysis of the deposited data

How the results depend on the processing

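The 78 higher and 26 lower genes became 0 and 0 with all 9 libraries and day and phase as terms (969 genes at an unadjusted p under 0.05), with 6 group means on 9 libraries (1066), without the variance trend (1415) and with the background density subtracted (1261). They became 35 and 9 with the median over the rows of a gene. With the clone as a replicate block they were 278 and 195, for day 28 alone the block gave 6 genes, and for day 0 alone and the day-by-phase difference 0. Leaving out libraries gave 0 to 309 higher and 0 to 181 lower genes. Rescaling, filters, pseudocounts, voom and removal of the span trend gave 62 to 89 higher and 18 to 35 lower genes. All 104 kept their direction under every setting run, save 1 of 100 under the median over rows. The 4 genes of day 28 became 0 with quantile scaling and with a pseudocount of 5, 45 without a filter, 11 with a pseudocount of 0.1, 13 without the trend, 16 with voom, 10 with the span trend removed, 38 with the median over rows, 124 with the background subtracted, and 0 in each fit without a library. Day 0 had 3 calls with the background subtracted. The day-by-phase difference had 2 without a filter, 3 without the trend, 2 with voom and 66 with the background subtracted. Among genes that did not pass, signs turned with the span trend removed for EGFR (-0.097), with the median over rows for CNTROB (-0.036), PFKFB3 (-0.18) and CDT1 (-0.18), and with the block for DUSP6 (0.082). With libraries left out in turn the log2 fold change ran from -0.041 to 0.37 for EGFR, -1.32 to 0.63 for DUSP6, -0.16 to 0.61 for H1-2, -0.21 to 1.69 for GMNN, -1.09 to 3.29 for ETV1, -0.82 to 2.90 for HK2, -0.80 to 0.082 for MT-ND5, -1.55 to 0.025 for MUC1 and -1.71 to 0.41 for NAPSA. The cause of these changes was not tested. CCNE2 had 1 read in day 28 G2 and 908 in day 28 S, in libraries of 43.1 and 40.9 M reads. Spans with no read made up 16.3% of rows in day 28 G2, against 12.4% in day 0 G2 and 13.01% in day 28 S. In S at day 0 they made up 13.7% and 16.4% (clones 1 and 7). Why CCNE2 had so few reads in day 28 G2 was not tested.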

Other observations

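The G1 libraries took no part in the comparison, and their levels are given for genes at its ends. PIF1 stood at 4.42 and 7.94 in G1 at day 0 (clones 1 and 7) and at 5.40 and 3.07 in G1 at day 28, below each of the G2 and S libraries. KIF20A stood at 10.10 and 12.23 in G1 at day 0 and at 8.68 and 6.18 at day 28, below each of the G2 and S libraries as well. KRT13, the keratin that was lower in G2 than in S, stood at 12.67 and 12.18 in G1 at day 0 and at 13.61 and 15.05 at day 28, above each of the S libraries. E2F1 stood at 12.27 and 12.09 in G1 at day 0 and at 10.84 and 9.68 at day 28.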
